A study of Mus musculus with 56 samples.

Results

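Hepatokines are proteins that the liver secretes into the circulation and that act on other organs or on the liver itself. The 9 genes described here were taken by symbol from the deposited table of 21935 mouse genes. They are Gdf15, Inhba, Inhbc, Inhbe, Ahsg, Fetub, Tsku, Enho and Hgfac. All 9 were among the 14105 genes that had enough reads to be tested. The livers came from 56 male C57BL/6J mice, 8 in each of 7 groups, and each mouse is 1 RNA sequencing library. Chow vehicle mice were the lean controls. The other 6 groups had eaten the fat-, fructose- and cholesterol-rich AMLN diet, were obese, and had steatohepatitis and fibrosis in a liver biopsy taken before treatment (DIO-MASH mice, where MASH stands for metabolic dysfunction-associated steatohepatitis). For 8 weeks they were dosed daily under the skin. One of these groups had vehicle, a pair had zalfermin at 0.05 or 0.2 mg/kg (zalfermin low and zalfermin high), another pair had semaglutide at 0.003 or 0.12 mg/kg (semaglutide low and semaglutide high), and the combination group had the low doses of both drugs. Zalfermin is a long-acting analog of fibroblast growth factor 21, and semaglutide is a glucagon-like peptide-1 receptor agonist. The doses of the combination are those of the study's methods, and the deposited design text instead calls both of its doses high.

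Gdf15, Inhba, Inhbc and Inhbe encode ligands of the transforming growth factor beta superfamily. Gdf15 is a stress-induced cytokine that lowers food intake through the receptor Gfral in the hindbrain, and the inhibin beta subunits pair into activins, of which activin C and activin E (from Inhbc and Inhbe) are made mainly by hepatocytes. Ahsg and Fetub encode fetuin-A and fetuin-B, abundant plasma proteins of the cystatin superfamily. Fetuin-A binds calcium phosphate and can inhibit the insulin receptor kinase. Hgfac encodes the serine protease that cleaves the precursor of hepatocyte growth factor into its active form, Enho encodes the peptide adropin, and Tsku encodes tsukushi, a small leucine-rich repeat proteoglycan.

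The count table held 5228187 to 20885786 reads for a mouse, with a median of 12206788. Levels are given as CPM, which are read counts scaled to a common library size with edgeR's TMM factors, and differences as log2 fold changes with their standard errors (SE). The factors were 0.708 to 0.897 in chow mice and 1.08 to 1.20 in DIO-MASH vehicle mice, so the scaling enters every difference between these groups. A gene is said to rise or fall where the quasi-likelihood F test of edgeR gave a Benjamini-Hochberg adjusted p under 0.05 over the 14105 genes. A pair of libraries stood apart from their own groups. Chow mouse 8 had a mean Spearman correlation across genes of 0.947 with the other chow mice, and semaglutide low mouse 6 one of 0.967 with the rest of its group, while the other 54 mice had values of 0.970 to 0.988. The deposited design text says that 1 semaglutide low sample was excluded in quality control but the table does not mark it, so all mice were kept and both libraries were also left out.

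Per kilobase of exon, the level in DIO-MASH vehicle mice ran from 2012 CPM for Ahsg and 174 CPM for Fetub through 51.1 CPM for Tsku, 42.9 CPM for Hgfac, 30.3 CPM for Inhbc and 11.4 CPM for Inhbe down to 4.15 CPM for Gdf15, 1.86 CPM for Enho and 1.35 CPM for Inhba. In chow mice the order differed, with Enho at 24.3 CPM per kilobase above Inhbe at 7.46 and Gdf15 last at 1.41. Both values of Inhbe may be too low, since RefSeq starts this gene inside the first exon that GENCODE counts in its length. The rarest members rested on few reads. Gdf15 had 3 to 366 reads in a library and Enho 16 to 521, against 33950 or more for Ahsg in every library.

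Members that are neighbours in the genome were of interest because they could be compared within a locus. On GRCm38, Inhbe (chromosome 10, 127348857 to 127354411) and Inhbc (chromosome 10, 127356322 to 127370431) lie on the minus strand 1910 bases apart, and Ahsg (chromosome 16, 22891277 to 22899449) and Fetub (chromosome 16, 22918334 to 22939778) lie on the plus strand 18884 bases apart. No annotated gene lies between the genes of either pair. The remaining members are Gdf15 (chromosome 8, 70629393 to 70632456), Inhba (chromosome 13, 16011851 to 16031621), Tsku (chromosome 7, 98350668 to 98361328), Enho (chromosome 4, 41638144 to 41640324) and Hgfac (chromosome 5, 35041509 to 35048461). An antisense gene overlaps Inhba, Inhbc, Inhbe, Ahsg and Enho. Whether the counting used strand is not given in the sources used here, so reads of these 5 genes and of their antisense partners may not be separated.

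The sequences before the RefSeq start sites (GRCm38.p6) of the 4 neighbouring members are shown 5′ to 3′. The reason, described below, is that in the combination group Inhbc rose and Inhbe fell, while Ahsg and Fetub both rose. Capitals mark matches to a searched motif. All 250 bases are given for Inhbc and Ahsg. For Inhbe and Fetub 30 bases around the match are given, because 250 and 48 of their 250 bases lie in what the GENCODE annotation calls untranslated exon.
Inhbe (chr10:127352011-127352040, minus strand): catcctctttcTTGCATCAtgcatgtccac
Inhbc (chr10:127370549-127370798, minus strand): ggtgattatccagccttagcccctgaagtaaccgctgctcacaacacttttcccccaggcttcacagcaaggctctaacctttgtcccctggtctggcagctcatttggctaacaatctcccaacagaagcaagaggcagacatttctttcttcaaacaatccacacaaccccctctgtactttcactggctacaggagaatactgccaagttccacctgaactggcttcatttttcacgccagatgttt
Ahsg (chr16:22891765-22892014, plus strand): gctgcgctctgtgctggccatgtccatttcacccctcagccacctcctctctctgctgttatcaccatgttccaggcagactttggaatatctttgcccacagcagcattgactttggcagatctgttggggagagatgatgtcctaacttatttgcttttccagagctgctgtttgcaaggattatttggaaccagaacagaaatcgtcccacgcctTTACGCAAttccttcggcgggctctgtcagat
Fetub (chr16:22918339-22918368, plus strand): ctgtttgcaagaTATAAAagggcagtcaga

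Motifs were searched on both strands from 250 bases before to 50 bases after the start site, a window that RefSeq gave for 8 of the 9 members. The Inhbe window held TTGCATCA at position -181, a reverse complement match to the C/EBP-ATF response element TGATGNAA, which 3.97% of the 32851 RefSeq windows of mouse hold. None of the other 7 members with a window, Gdf15 included, had this match. The Ahsg window held TTACGCAA at -32, a reverse complement match to the C/EBP motif TTGCNNAA (10.8% of windows), and Fetub held TATAAA at -31 (13.6% of windows) and, before its other start site, the FOXA motif TGTTTAC at -236 (3.65%). Inhba, whose sequence is not shown, held a C/EBP match at -67 and TATAAA at -91. None of the windows of members held the HNF4 motif CAAAGTCCA (0.475% of windows) or the HNF1 motif (0.00913%). None of the matches in members overlapped another. A match describes letters in the window and not a site in use.

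The first comparison asked how the diet-induced disease moved the hepatokine genes. Between chow vehicle and DIO-MASH vehicle mice, 7 of the 9 members differed, against 55.4% of all genes tested in either direction. In chow mice Enho, Fetub, Ahsg, Hgfac and Inhbc were higher (26.5% of all genes were) and Gdf15 and Inhbe were lower (28.9% of all genes were). The median log2 fold change was 0.59 over the members and -0.01 over all genes. Inhba and Tsku did not pass the test. Leaving out chow mouse 8 left 6 members called, since Inhbe then missed the threshold.

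Against DIO-MASH vehicle, the combination changed 6 members (20.9% of all genes changed), zalfermin high 6 (17.2%) and semaglutide high 2 (2.43%). The combination raised Enho, Hgfac, Ahsg, Inhbc and Fetub (10% of all genes rose) and lowered Inhbe (10.9% fell). High-dose zalfermin raised Enho, Ahsg, Hgfac and Fetub (8.54% of all genes rose) and lowered Inhbe and Gdf15 (8.68% fell). Semaglutide high (1.43% of all genes rose) raised Hgfac and, with an adjusted p just under the threshold, Ahsg. Without semaglutide low mouse 6 the count for semaglutide high was 3, with Fetub added, and DESeq2's Wald test called the same 3 genes (3.66% of all genes). Neither low dose given alone changed a member by edgeR. For zalfermin low, where edgeR called 0.468% of all genes, 2 members had an unadjusted p under 0.05 (11.3% of all genes did). DESeq2 called 2, Ahsg and Hgfac, of the 5 members to which it gave an adjusted p, and 8.05% of the 2620 genes to which it gave one. For semaglutide low, where edgeR called 0% of all genes, 4 members had an unadjusted p under 0.05 (8.66% of all genes did). DESeq2 called 1, Hgfac, of the 4 members to which it gave an adjusted p, and 2.55% of 1253 genes. The same vehicle mice enter each of these comparisons, so their values are not independent.

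**Figure D1:**
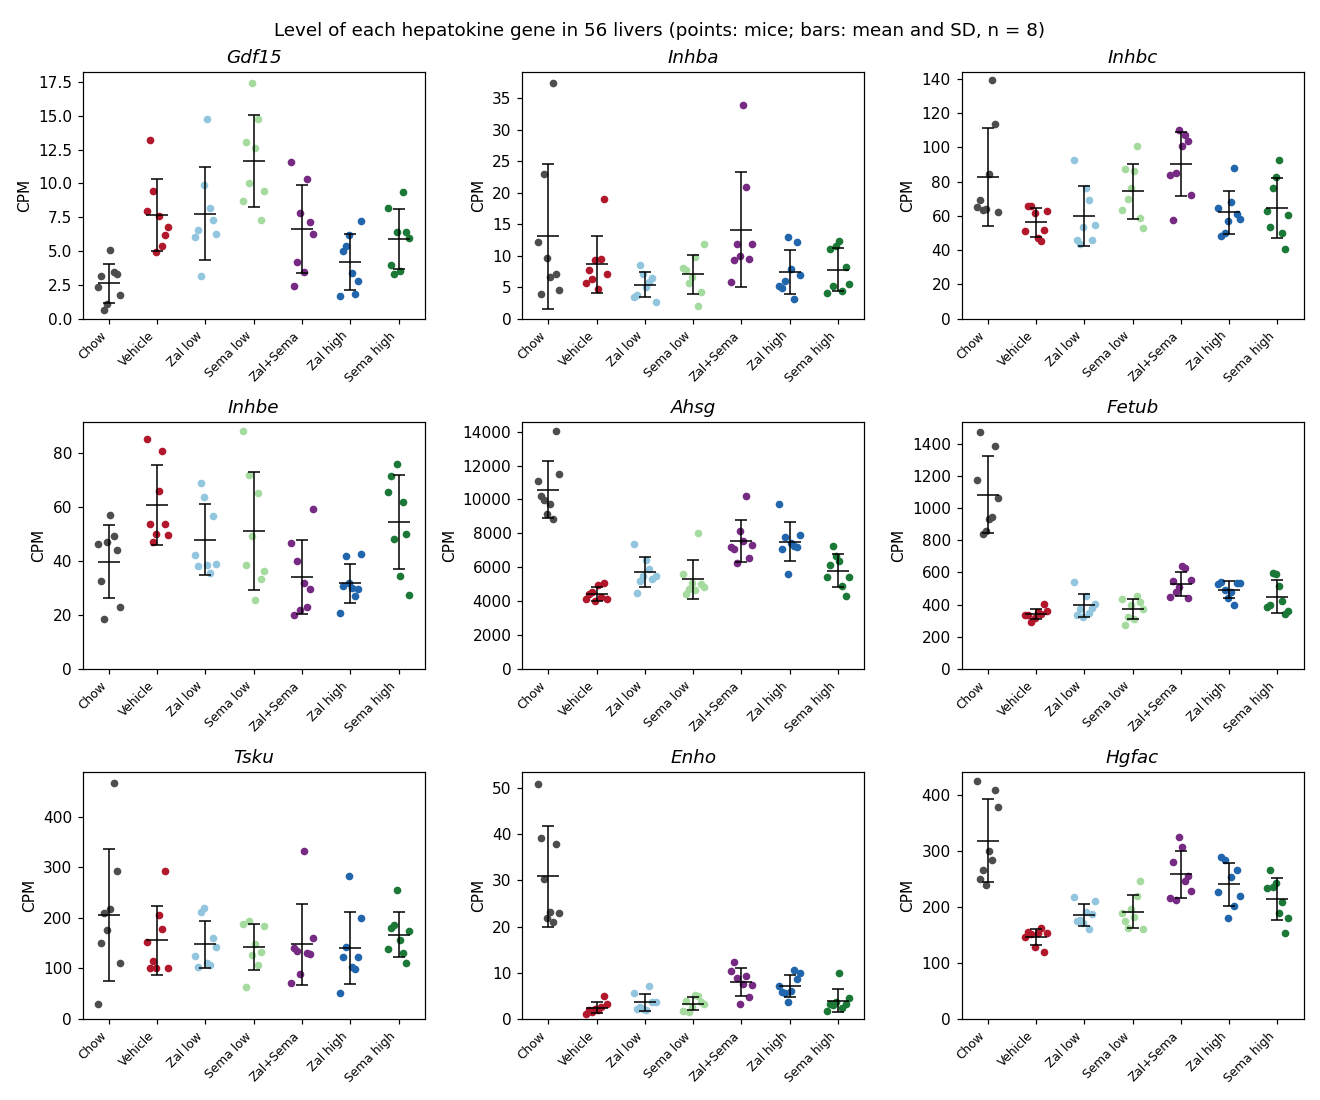
Level of each member in CPM (vertical axis, linear, from 0) in every mouse of the 7 groups, with points for mice and bars for the mean and SD of 8 mice. Ahsg, Fetub, Enho and Hgfac are highest in chow mice and lowest in DIO-MASH vehicle mice by group mean, whereas the groups overlap widely for Tsku and Inhba.

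**Figure D2:**
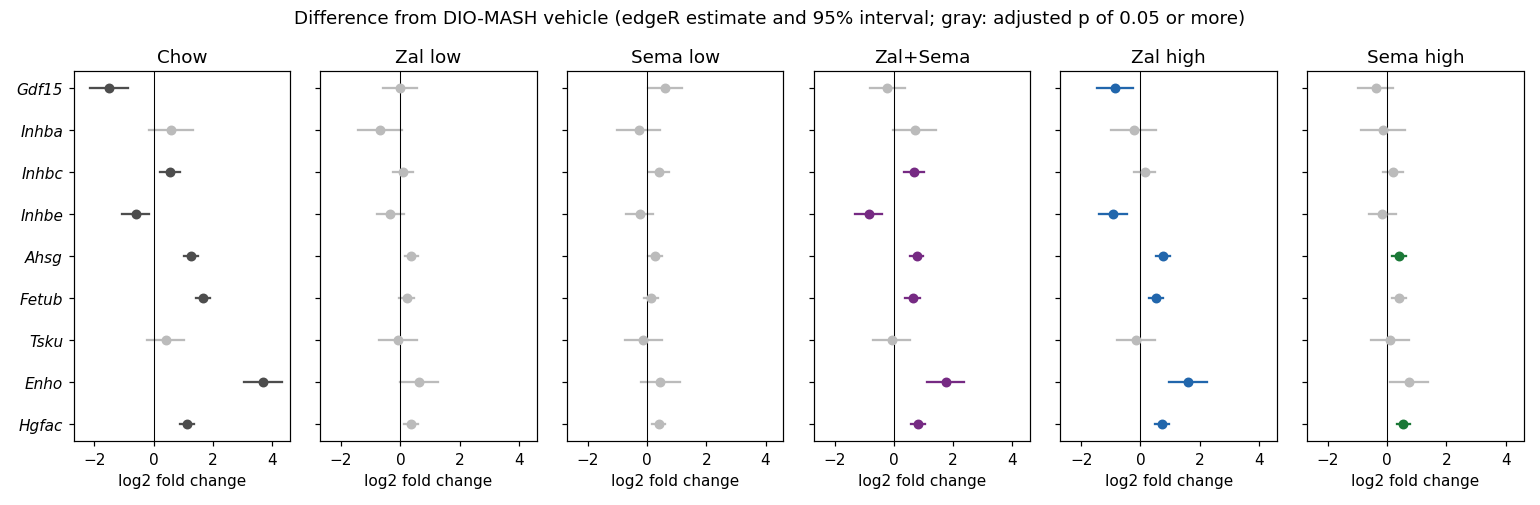
Log2 fold change (horizontal axis) of each member against DIO-MASH vehicle in 6 panels, with edgeR's estimate as a point and its 95% interval as a bar, gray where the adjusted p was 0.05 or more. The number of colored points is 7 for chow, 0 for both low doses, 6 for the combination, 6 for zalfermin high and 2 for semaglutide high.

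Among the ligands, Gdf15 ran against the plasma protein genes between the control groups and under zalfermin high, but not in the combination. In DIO-MASH vehicle mice its lowest, median and highest levels were 4.94, 7.18 and 13.2 CPM, and in chow mice 0.652, 2.76 and 5.10 CPM. Of the chow mice, 7 lay below every vehicle mouse. The fold change of chow against vehicle was -1.52 on the log2 scale (SE 0.32, edgeR adjusted p = 6.56e-05). Zalfermin high mice had levels of 1.66, 4.17 and 7.23 CPM, and 4 of the 8 lay below every vehicle mouse. The difference was -0.86 (SE 0.30, adjusted p = 0.0415), a call that was lost when any of 8 single mice was left out (adjusted p up to 0.122). Within the 3 runs of sample numbers that held both groups it was -1.49, -1.03 and -0.34. Combination mice were at 2.41, 6.68 and 11.6 CPM, and their difference from vehicle of -0.23 missed the threshold (edgeR adjusted p = 0.618). Semaglutide low mice had the highest group mean, at 7.30, 11.3 and 17.4 CPM, but their difference from vehicle of 0.59 (SE 0.29) missed the threshold (adjusted p = 0.562), and its 95% interval ran from 0.02 to 1.17. Semaglutide high was at 3.28, 6.17 and 9.39 CPM, and its difference of -0.99 (SE 0.29) from semaglutide low also missed the threshold (adjusted p = 0.999). All 8 zalfermin high mice lay below all 8 semaglutide low mice, by a narrow margin (7.23 against 7.30 CPM). The log2 fold change was -1.45 (SE 0.30, edgeR adjusted p = 0.00169, where 5.2% of all genes were called). This pair was not among the planned comparisons. It joins the treated groups of lowest and highest mean, a choice for which the adjusted p does not allow.

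Inhbe and Inhbc, whose products are the liver activins E and C, separated under treatment. Inhbe was at 47.01, 53.7 and 85.2 CPM (lowest, median and highest) in DIO-MASH vehicle mice, and at 18.5, 45.2 and 57.01 CPM in chow mice. All 8 zalfermin high mice, at 20.8, 30.3 and 42.7 CPM, lay below every vehicle mouse, with a log2 fold change of -0.93 (SE 0.23, edgeR adjusted p = 0.00299). In the combination group 7 of 8 mice did so, at 19.8, 30.7 and 59.2 CPM, with a change of -0.85 (SE 0.23, adjusted p = 0.00607). Chow mice differed from vehicle mice by less, -0.61 (SE 0.23, adjusted p = 0.0219), and this call was lost without chow mouse 3, chow mouse 8, vehicle mouse 1 or vehicle mouse 6. Without chow mouse 8 the difference was -0.52 (SE 0.23, adjusted p = 0.0518). The treated groups were not separated from chow, at -0.24 (SE 0.23, adjusted p = 0.456) for the combination and -0.32 (SE 0.23, adjusted p = 0.281) for zalfermin high. Semaglutide high stayed near vehicle, at 27.4, 56.005 and 75.8 CPM, with a difference of -0.16 and a 95% interval of -0.62 to 0.29.

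Inhbc rose where Inhbe fell in the combination group. Its levels were 45.4, 56.6 and 65.9 CPM in DIO-MASH vehicle mice and 57.7, 93.0 and 110.1 CPM in the combination group, of which 7 mice lay above every vehicle mouse. The log2 fold change was 0.68 (SE 0.17, edgeR adjusted p = 0.00299). Chow mice were at 62.3, 67.2 and 139 CPM and 0.56 above vehicle (SE 0.17, adjusted p = 0.00478). Zalfermin high, at 48.4, 59.7 and 88.1 CPM, was not separated from vehicle (log2 fold change 0.14, SE 0.17, adjusted p = 0.639), nor was semaglutide low at 52.99, 72.9 and 101 CPM (0.40, SE 0.17, adjusted p = 0.497). The combination exceeded zalfermin low by 0.59 (SE 0.17, adjusted p = 0.0248). Its difference of 0.54 (SE 0.17) from zalfermin high missed the threshold (adjusted p = 0.133), and no difference from semaglutide low was seen (0.28, 95% interval -0.06 to 0.62).

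The ratio of Inhbc to Inhbe within a mouse was computed after these values had been seen and is given without a test. Its median was 1.09 in DIO-MASH vehicle mice (0.562 to 1.40), 2.35 in chow mice (1.36 to 3.44), 1.93 under zalfermin high (1.20 to 3.27) and 3.04 under the combination (1.22 to 5.04). Of 8 mice in each group, 7 chow mice, 7 combination mice and 6 zalfermin high mice had a ratio above that of every vehicle mouse. In zalfermin low, semaglutide low and semaglutide high mice the medians were 1.30, 1.54 and 1.02, and 4, 6 and 3 mice lay above every vehicle mouse. The genes are not compared in absolute level by this ratio, since Inhbe has 5319 bases of annotated exon and Inhbc 1859, and RefSeq starts Inhbe inside the first of the exons that GENCODE gives it.

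**Figure D3:**
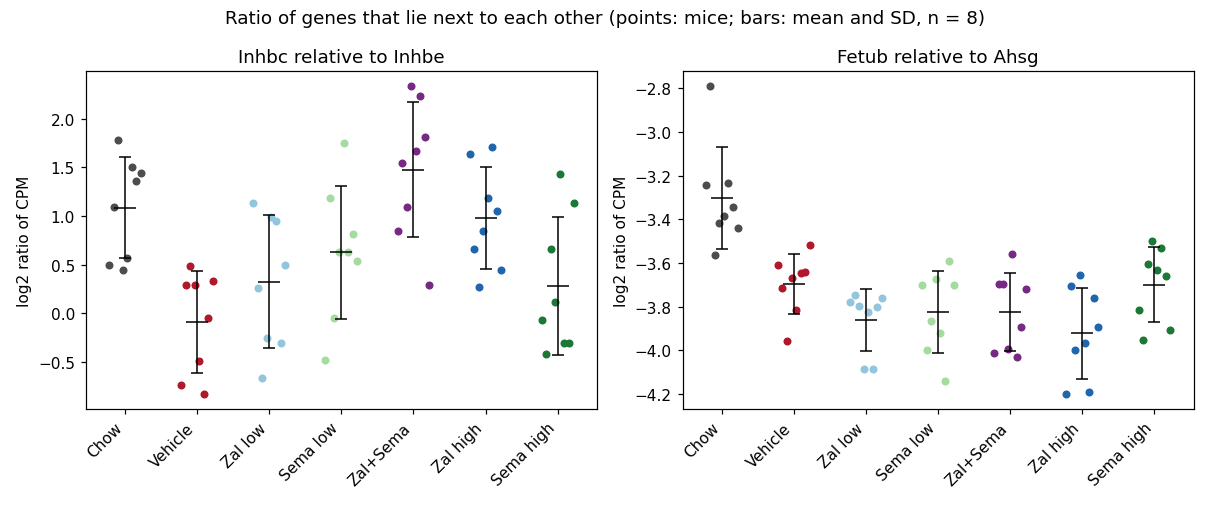
Log2 ratio of the CPM of neighbouring members (vertical axes) in each mouse, with the mean and SD of 8 mice per group, for Inhbc relative to Inhbe and for Fetub relative to Ahsg. The mean log2 ratio of Inhbc to Inhbe is -0.09 in DIO-MASH vehicle mice and 1.48 in the combination group, and that of Fetub to Ahsg is -3.70 in vehicle mice and -3.30 in chow mice.

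Inhba, which encodes the subunit of activin A, had in chow mice the largest coefficient of variation of any member in any group. It was 88.7% there, at 3.91, 8.37 and 37.4 CPM, and 52.2% in DIO-MASH vehicle mice, at 4.66, 7.33 and 18.9 CPM. No group differed from vehicle by edgeR. Combination mice were at 5.81, 10.9 and 33.9 CPM and zalfermin low mice at 2.63, 5.46 and 8.50 CPM, and 7 combination mice lay above every zalfermin low mouse. That difference passed the test (log2 fold change 1.39, SE 0.38, edgeR adjusted p = 0.0156) but not without combination mouse 5 (1.07, adjusted p = 0.0764). For the low-dose interaction, which is 0 on the log2 scale where the effects of both low doses multiply, Inhba had the largest estimate of the members, 1.68 (SE 0.53), and missed the threshold (adjusted p = 0.415). No member passed this test (0.0142% of all genes did) and 1 had an unadjusted p under 0.05 (6.75% of all genes did). DESeq2's Wald test called 0 of the 6 members to which it gave an adjusted p, Inhba not among them, and 0.179% of the 7815 genes to which it gave one. Against chow, vehicle mice were lower by 0.59 (SE 0.37, adjusted p = 0.169), a difference that passed the test when vehicle mouse 7 was left out (0.88, adjusted p = 0.0418).

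The fetuin genes fell in DIO-MASH and were partly higher again under treatment. Ahsg was at 8857, 10091 and 14068 CPM (lowest, median and highest) in chow mice and at 3994, 4317 and 5047 CPM in DIO-MASH vehicle mice, with no overlap. The difference was 1.26 (SE 0.12, edgeR adjusted p = 7.14e-13). Every combination mouse, at 6225, 7252 and 10216 CPM, and every zalfermin high mouse, at 5574, 7343 and 9748 CPM, lay above all vehicle mice. The log2 fold changes were 0.77 (SE 0.12, adjusted p = 1.64e-06) and 0.76 (SE 0.12, adjusted p = 2.27e-06). Semaglutide high, at 4309, 5768 and 7221 CPM, was 0.39 higher (SE 0.11, adjusted p = 0.0499). This last call lies at the threshold, was lost in 39 of the 56 fits that left out 1 mouse each, and within the 3 runs of sample numbers the differences were 0.57, 0.32 and 0.06. Zalfermin low mice were at 4483, 5452 and 7379 CPM, 7 of them above every vehicle mouse, with a difference of 0.37 (SE 0.11, adjusted p = 0.128) that DESeq2 called (adjusted p = 0.0283). Semaglutide low mice were at 4398, 4926 and 7992 CPM, where the highest was mouse 6, and their difference of 0.26 was 0.15 without that mouse, neither of them called.

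Fetub repeated this order at lower levels, as the plot of the 9 members by mouse shows. Chow mice were at 842, 1003 and 1477 CPM and DIO-MASH vehicle mice at 292, 337 and 405 CPM, a difference of 1.67 (SE 0.12, edgeR adjusted p = 1.12e-15). All 8 combination mice (442, 528 and 639 CPM) and 7 of 8 zalfermin high mice (397, 509 and 543 CPM) lay above the vehicle mice, with changes of 0.64 (SE 0.12, adjusted p = 0.000101) and 0.53 (SE 0.12, adjusted p = 0.00118). Semaglutide high mice, at 341, 407 and 595 CPM, were 0.40 higher (SE 0.12) and missed the threshold (adjusted p = 0.0597). DESeq2 called that difference (adjusted p = 0.0427). The ratio of Fetub to Ahsg, again without a test, had a median of 0.0972 in chow mice, 0.0794 in vehicle mice, 0.0716 in the combination group and 0.0656 under zalfermin high.

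Hgfac, like Ahsg, rose in 3 treated groups, although the Ahsg call under semaglutide high lay at the threshold. Hgfac was at 239, 292 and 426 CPM in chow mice and 119, 153 and 163 CPM in DIO-MASH vehicle mice, 1.12 lower (SE 0.12, edgeR adjusted p = 1.92e-11). The combination (213, 250.3 and 325 CPM) raised it by 0.82 (SE 0.12, adjusted p = 4.72e-07). Zalfermin high (181, 240.2 and 289 CPM) raised it by 0.71 (SE 0.12, adjusted p = 8.15e-06), and all mice of these 2 groups lay above all vehicle mice. Semaglutide high (153, 222 and 265 CPM) raised it by 0.55 (SE 0.12, adjusted p = 0.00733), with 7 of 8 mice above every vehicle mouse. In the low-dose groups 7 of 8 mice each also lay above every vehicle mouse, but the differences of 0.35 (zalfermin low, SE 0.12, adjusted p = 0.173) and 0.39 (semaglutide low, SE 0.12, adjusted p = 0.272) were called by DESeq2 alone (adjusted p = 0.0475 and 0.0484).

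Enho showed the largest change of the members. Chow mice were at 20.9, 26.7 and 50.98 CPM and DIO-MASH vehicle mice at 0.965, 1.99 and 4.85 CPM, so that the vehicle mean was 7.65% of the chow mean. The log2 fold change of chow over vehicle was 3.70 (SE 0.32, edgeR adjusted p = 1.17e-13). Combination mice (3.29, 8.26 and 12.4 CPM) were 1.75 above vehicle (SE 0.31, adjusted p = 4.07e-05) and zalfermin high mice (3.68, 6.54 and 10.7 CPM) 1.61 above vehicle (SE 0.32, adjusted p = 0.000175). All of these mice stayed below every chow mouse. Both low doses alone and semaglutide high remained between 1.44 and 9.84 CPM, and their differences from vehicle of 0.63, 0.45 and 0.72 missed the threshold (adjusted p = 0.459, 0.718 and 0.229). On the opposite strand, Gm12406 overlaps Enho by 947 bases and Dnaic1 overlaps its end by 15 bases, which bears on these low counts if strand was not used.

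Tsku did not pass the test in any comparison by edgeR. Its levels were 29.6, 193 and 467 CPM in chow mice and 99.99, 134 and 293 CPM in DIO-MASH vehicle mice, with a difference of 0.41 (SE 0.31, edgeR adjusted p = 0.271). The treated groups had means between 140.4 CPM (SD 71.0, n = 8) under zalfermin high and 166 CPM (SD 44.3, n = 8) under semaglutide high, and their differences from vehicle ran from -0.15 to 0.10. The 95% intervals reached about 0.63 to either side of the estimate, for example -0.78 to 0.48 under zalfermin high. Changes within these intervals were therefore not excluded.

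The study's question of whether both low doses together exceed each alone was then put to the members. Against zalfermin low, the combination raised 6 members (6.62% of all genes changed, 3.27% upward). These were Enho by 1.13 (SE 0.30), Inhba, Inhbc, Hgfac by 0.47 (SE 0.12), Fetub by 0.43 (SE 0.12) and Ahsg by 0.40 (SE 0.11), with edgeR adjusted p of 0.0145, 0.0156, 0.0248, 0.00672, 0.0205 and 0.0226. Without combination mouse 6 the count was 3, and without combination mouse 5 or zalfermin low mouse 2 it was 4. Against semaglutide low it raised 4 members (4.21% of all genes changed, 1.93% upward). The count was 4 without semaglutide low mouse 6 and 3 without combination mouse 5, where Hgfac missed the threshold (adjusted p = 0.0512). They were Enho by 1.31 (SE 0.31, adjusted p = 0.00652), Fetub by 0.51 (SE 0.12, adjusted p = 0.00706), Ahsg by 0.51 (SE 0.11, adjusted p = 0.00445) and Hgfac by 0.43 (SE 0.12, adjusted p = 0.019). Since no member passed the interaction test, the combination was not shown to depart from the product of both low doses.

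No member separated the combination from either high dose, or one dose of a drug from the other, by edgeR. Against zalfermin high, 0 members passed, 3 had an unadjusted p under 0.05 and DESeq2 called 0, where the shares of all genes were 0.503%, 10.9% and 1.63% by these 3 rules, the last over the genes to which DESeq2 gave an adjusted p. For Ahsg the difference was 0.01 with a 95% interval of -0.22 to 0.23, whereas for Inhba the interval of 0.19 to 1.68 left room for a higher level in the combination. Against semaglutide high, 0 members passed, 6 had an unadjusted p under 0.05 and DESeq2 called 2, Ahsg and Enho (all genes 1.89%, 14.4% and 3.4%). Between the doses of zalfermin, 0 members passed, 6 had an unadjusted p under 0.05 and DESeq2 called 2, again Ahsg and Enho (all genes 1.84%, 13.5% and 2.61%). Between the doses of semaglutide 0 passed, 2 had an unadjusted p under 0.05 and DESeq2 called 0 (all genes 0%, 3.89% and 0%). Between both high doses 0 passed, 3 had an unadjusted p under 0.05 and DESeq2 called 0 (all genes 0.447%, 9.65% and 1.2%). In that last comparison Inhbe was lower under zalfermin high by 0.77 (SE 0.23), with an adjusted p of 0.119.

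Placed between vehicle (0%) and chow (100%) on the log2 scale, the combination lay at 73.2% for Hgfac, 61.0% for Ahsg, 47.4% for Enho and 38.1% for Fetub. Zalfermin high lay at 63.7%, 60.6%, 43.4% and 31.7% for the same genes. Beyond the chow level lay Inhbe, at 139% in the combination and 153% under zalfermin high, and Inhbc, at 122% in the combination. Neither gene differed from chow in the combination group by edgeR (adjusted p = 0.456 for Inhbe and 0.617 for Inhbc). When the 7 groups were put in order of their mean for each member, 4 of the 54 pairs of neighbouring groups differed. All 4 set the combination below chow, a comparison in which 32.4% of all genes were called, for Ahsg (adjusted p = 0.000745), Fetub (adjusted p = 5.52e-09), Enho (adjusted p = 9e-07) and Hgfac (adjusted p = 0.0386).

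**Figure D4:**
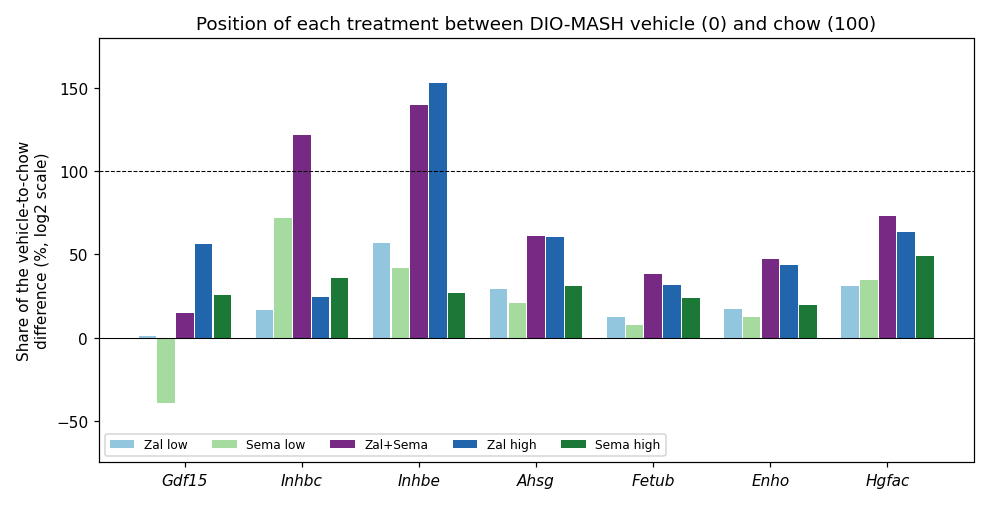
Position of each treated group between DIO-MASH vehicle (0, solid line) and chow (100, dashed line), as a percentage of the log2 difference between both controls (vertical axis), for the 7 members that differed between the controls. For Ahsg, Fetub, Enho and Hgfac the bars of the combination and zalfermin high are the tallest and stay under 100, and for Gdf15 the bar of semaglutide low is at -39.2.

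Marker genes of several liver cell types moved in the groups in which members did. Some marker sums also had lower medians than vehicle in groups where few or no members were called. The summed level of 7 hepatocyte markers, Alb among them, had a median of 169650 CPM in chow mice (156190 to 242310), 80288 CPM in DIO-MASH vehicle mice (69220 to 91752), 119880 CPM in the combination, 109400 CPM under zalfermin high and 106350 CPM under semaglutide high. All 7, of 8 listed, were higher in chow than in vehicle mice, 6 of 7 rose under the combination and under zalfermin high, and 2 of 7 under semaglutide high. Of all genes, 26.5% were higher and 28.9% lower in chow mice, and 10% rose and 10.9% fell under the combination. Under zalfermin high 8.54% rose and 8.68% fell, and under semaglutide high 2.43% changed. The shorter marker lists below, of 3 to 5 genes, are too short to be set against these shares. Against vehicle, the log2 median of the hepatocyte markers was 1.19 in chow, 0.66 in the combination and 0.49 under zalfermin high. In the same order the members were at 1.26, 0.77 and 0.76 for Ahsg and 1.12, 0.82 and 0.71 for Hgfac. Fetub was at 1.67, 0.64 and 0.53, Enho at 3.70, 1.75 and 1.61, and Inhbc at 0.56, 0.68 and 0.14. Inhbe was at -0.61, -0.85 and -0.93, and Gdf15 at -1.52, -0.23 and -0.86. The sum of 6 markers of monocyte-derived macrophages was 62.1 CPM in chow mice (median, 49.8 to 85.9), 505 CPM in vehicle mice (325 to 714), 235 CPM in the combination (87.7 to 406) and 284 CPM under zalfermin high (69.6 to 400.5). All 6 were lower in chow than in vehicle mice, and 4 fell under the combination and under zalfermin high. The sum of 7 stellate cell markers was 126 CPM in chow mice, 595 CPM in vehicle mice, 238 CPM in the combination and 303 CPM under zalfermin high, and 5, 5 and 2 of them were lower in chow, the combination and zalfermin high than in vehicle mice. In semaglutide high, zalfermin low and semaglutide low mice, the median macrophage sums were 244, 352 and 319 CPM. The median stellate cell sums were 342, 423 and 424 CPM in these groups, and all these ranges overlapped those of vehicle mice. Of 5 Kupffer cell markers, 2 were higher and 1 lower in chow mice, 3 rose under the combination and 1 rose under zalfermin high, and their sum was 158, 254, 309 and 322 CPM in chow, vehicle, combination and zalfermin high mice. Of 5 sinusoidal endothelial cell markers, 1 was higher and 3 lower in chow mice and 1 fell under the combination, and 2 of 4 cholangiocyte markers were lower in chow mice. All 4 T cell and 3 B cell markers were lower in chow mice, and 1 B cell marker fell under the combination and 3 under semaglutide high, at sums of at most 31.7 CPM in a mouse. Fewer cells of a type and less RNA per cell cannot be told apart in these whole-liver samples, and the part of cell makeup in the results was not tested. The adipocyte markers Adipoq, Lep and Plin1 had at most 6, 2 and 3 reads in a library.

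The same 14105-gene fit gave the other genes of these pathways. Of 20 tested genes of the activin and transforming growth factor beta pathway, 4 were higher and 10 lower in chow than in DIO-MASH vehicle mice, 2 rose and 5 fell under the combination, 2 rose and 2 fell under zalfermin high, and 0 changed under semaglutide high or either low dose. These are 14, 7 and 4 of 20 for chow, the combination and zalfermin high, where 55.4%, 20.9% and 17.2% of all genes were called. The median log2 change of the list was -0.45 in chow mice and -0.21 in the combination, against -0.01 and -0.03 over all genes. Fstl1, which encodes a secreted follistatin-like glycoprotein, fell by 1.002 in the combination (SE 0.24, edgeR adjusted p = 0.00175) and fell by 1.001 under zalfermin high (adjusted p = 0.00197). The receptor gene Tgfbr2 fell by 0.88 in the combination (adjusted p = 5.07e-05) and by 0.67 under zalfermin high (adjusted p = 0.00185), whereas the activin receptor gene Acvr2a rose by 0.41 and 0.40 (adjusted p = 0.00782 and 0.011). Smad4, the common mediator of these signals, rose by 0.32 in the combination (adjusted p = 0.000686).

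Among 8 genes around hepatocyte growth factor, the growth factor gene Hgf itself went the other way from Hgfac. It was 1.84 lower in chow than in DIO-MASH vehicle mice (edgeR adjusted p = 9.86e-11), fell by 0.96 in the combination (adjusted p = 0.000194) and by 0.60 under zalfermin high (adjusted p = 0.0225). Hpn, which encodes hepsin, another protease that cleaves the precursor, rose in the combination, zalfermin high and semaglutide high groups by 0.28, 0.32 and 0.34 (adjusted p = 0.0104, 0.00502 and 0.0192). Mst1, the gene of the related macrophage-stimulating protein, rose by 0.30 in the combination (adjusted p = 0.0187), and the receptor gene Met rose by 0.50 under zalfermin high (adjusted p = 0.00159). In all, 5 of the 8 were higher and 1 lower in chow mice, 2 rose and 1 fell under the combination and under zalfermin high, and 1 rose under semaglutide high. The calls were 6, 3, 3 and 1 of 8, beside 55.4%, 20.9%, 17.2% and 2.43% of all genes. Of the 4 receptors named for other members, Gfral had 0 reads in every library and Ret at most 17, so neither was tested. Insr, the insulin receptor gene, rose by 0.48 under zalfermin high (adjusted p = 0.0223), and Gpr19 passed no test.

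Of 18 further hepatokine genes, 10 were higher and 2 lower in chow than in DIO-MASH vehicle mice, 8 rose and 0 fell under the combination, 6 rose and 1 fell under zalfermin high, 2 rose under semaglutide high and 1 rose under zalfermin low. Of all genes, 26.5% were higher and 28.9% lower in chow mice, 10% rose and 10.9% fell under the combination, 8.54% rose and 8.68% fell under zalfermin high, 1.43% rose under semaglutide high and 0.468% changed under zalfermin low. The median log2 change of the list was 0.70, 0.41, 0.25, 0.11 and 0.07 in these comparisons, against -0.03 to -0.01 over all genes tested. Igfbp2, an insulin-like growth factor binding protein, rose by 1.27 in the combination (edgeR adjusted p = 3.75e-08), by 1.28 under zalfermin high (adjusted p = 3.89e-08), by 0.68 under semaglutide high (adjusted p = 0.0133) and by 0.70 under zalfermin low (adjusted p = 0.0195). Rbp4, the plasma retinol carrier, rose by 0.63, 0.59 and 0.34 in the first 3 of these groups (adjusted p = 2.03e-06, 8.15e-06 and 0.0363). Hamp, the gene of the iron hormone hepcidin, rose by 1.48 in the combination and by 1.39 under zalfermin high (adjusted p = 0.0181 and 0.0302). The 1 gene that fell under zalfermin high was Fgf21 (log2 fold change -1.10, edgeR adjusted p = 0.0478), named here after its value was seen. Its level was low, with a mean of 2.44 CPM over all mice, and its adjusted p lies near the threshold.

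Gdf15 and Inhbe are known targets of the integrated stress response, and 12 other target genes were examined beside them. Of these, 4 were higher and 4 lower in chow than in DIO-MASH vehicle mice, 1 rose and 2 fell under the combination, and 0 rose and 3 fell under zalfermin high. These 8, 3 and 3 calls among 12 genes stand beside 55.4%, 20.9% and 17.2% of all genes called in the same comparisons. Psat1, a serine synthesis enzyme, fell by 1.34 in the combination (edgeR adjusted p = 0.00414) and by 1.67 under zalfermin high (adjusted p = 0.000648). Asns, the asparagine synthetase gene, fell by 1.41 and 1.85 in these groups (adjusted p = 0.0425 and 0.0141), although it was 2.61 higher in chow than in vehicle mice (adjusted p = 1.69e-06). The levels of both genes were low, with means over all mice of 1.97 CPM for Psat1 and 1.63 CPM for Asns. Atf4, the gene of the transcription factor of this response, rose by 0.61 in the combination (adjusted p = 0.000413), and Atf3 fell by 0.78 under zalfermin high (adjusted p = 0.025). The median log2 change of the list was -0.21 in the combination and -0.25 under zalfermin high, against -0.03 and -0.02 over all genes.

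The labels give each mouse a number. These numbers were divided here into runs at gaps between them, a division that the labels neither make nor explain, and the place of the cuts was a choice. Between these runs none of the 9 members differed (smallest edgeR adjusted p = 0.144, for Inhba), although 1533 of the 14105 genes did. Within each run that held mice of both groups, the calls of Ahsg, Fetub, Enho, Hgfac and Inhbe kept their sign against DIO-MASH vehicle for chow, the combination and zalfermin high. The smallest of these differences were 0.58 for Ahsg, 0.42 for Fetub, 0.69 for Enho and 0.54 for Hgfac, and -0.37 for Inhbe. The runs held 1 to 4 mice of a group and give no test of their own.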

How the data were processed

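RNA of 56 mouse livers, 8 per group, had been sequenced by the authors from poly(A)-selected stranded libraries. They deposited 1 table of read counts per gene, not normalized. The study's methods name STAR with GRCm38 and an Ensembl annotation, whereas the submitters' processing notes name Trim Galore 0.6.4 and Salmon 1.9.0. Which of these made the table, and whether strand was used in counting, are not given in the sources used here. Groups were taken from the labels. The labels give each mouse a number of its own but no replicate numbers, so mice were numbered 1 to 8 in the order of their records.

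The deposited counts held 21935 genes, 4352 of them without a read. Genes with at least 5 reads in at least 3 mice (14105) were fitted in edgeR 4.0.16 with TMM scaling, 1 model of the 7 groups and the quasi-likelihood F test. P-values were adjusted over all 14105 genes by the Benjamini-Hochberg method, with a threshold of 0.05. The biological coefficient of variation was 22.6%. CPM used TMM-scaled library sizes. The test was checked on simulated counts for zalfermin high against vehicle. It recovered 98% of 200 genes changed 2 times among 13860 genes, with 6.67% of its calls false. The simulation gave every gene the same spread and changed no gene with few reads. These shares therefore do not apply to members with a wider spread, such as Inhba, Tsku, Gdf15 and Enho. No pair of libraries within a group agreed within counting noise (lowest chi-square per degree of freedom 7.93), so none was counted as a copy.

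Alternatives were DESeq2 1.42.0, its size factors, other filters, fits of the compared groups only, the runs of sample numbers as a term and leaving out each mouse. All 9 members are named. Of each pathway list, up to 4 genes are named, those called in the most of the 6 comparisons with vehicle, ties by mean CPM; 1 gene that this rule names is not reported here. The members and lists were chosen with earlier results of these data known, and the ratios of neighbouring members after their values were seen. Locations are from GENCODE M21 on GRCm38, and promoter windows from RefSeq (GRCm38.p6), which gave no window for Enho. Positions count from the start site, with -1 the base before it.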

Additional observations from a re-analysis of the deposited data

Results flagged for a closer look

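In 5 of the 63 combinations of a member and a group, the highest mouse lay farther from the next one, relative to the range of its group of 8, than Dixon's criterion allows. Chance gives about 5% of groups. All 5 were high values and none was low. Inhba was at 18.9 CPM in DIO-MASH vehicle mouse 7, where the next mouse had 9.52 CPM. Ahsg was at 7992 CPM in semaglutide low mouse 6, the library that also stood apart across all genes, against 5607 CPM in the next mouse. In the combination group, mouse 6 had 10216 CPM of Ahsg (next 8115 CPM) and mouse 5 had 333 CPM of Tsku (next 159 CPM). Enho was at 9.84 CPM in semaglutide high mouse 5, against 4.58 CPM in the next mouse.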

How the results depend on the processing

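Every difference that passed the test kept its direction in all alternatives run, whereas several that did not pass and lay near 0, those of Tsku among them, crossed 0 when 1 mouse was left out. With DESeq2's Wald test the number of members called moved from 0 to 2 for zalfermin low against DIO-MASH vehicle (Ahsg and Hgfac), from 0 to 1 for semaglutide low against vehicle (Hgfac), from 0 to 2 for the combination against semaglutide high, from 0 to 2 for zalfermin high against zalfermin low (Ahsg and Enho in both) and from 2 to 3 for semaglutide high against vehicle (Fetub added). Over all genes it called 211, 32, 415, 368 and 516 in these comparisons, against 66, 0, 266, 260 and 343 by edgeR. For semaglutide high against vehicle the count was 1 in place of 2 with DESeq2 size factors, with no filter beyond 1 read, with a filter of 10 reads in 8 mice, and with only the groups compared, since Ahsg then had an adjusted p of 0.0539 to 0.0698. With only the groups compared, the count rose from 0 to 1 for zalfermin low against vehicle (Hgfac) and from 0 to 3 for zalfermin high against zalfermin low, while the calls over all genes rose from 66 to 145 and from 260 to 391, and in the same fit Ahsg in the combination against semaglutide low missed the threshold (adjusted p = 0.0558; 309 genes called in place of 594). The stricter filter gave 1 for zalfermin high against zalfermin low (285 genes called), and the runs of sample numbers as a term gave 1 for the combination against semaglutide high (Enho; 323 genes called). Leaving out each of the 56 mice gave 1 to 3 members for semaglutide high against vehicle, 3 to 6 for the combination against zalfermin low, 3 to 4 against semaglutide low, 0 to 2 against semaglutide high, 0 to 4 for zalfermin high against zalfermin low and 0 to 1 against semaglutide high. The most came without zalfermin low mouse 1 for the doses of zalfermin (494 genes called), without semaglutide low mouse 6 for the combination against semaglutide high (319 genes), and without semaglutide high mouse 5 (Enho) between the high doses (61 genes in place of 63). The cause of these moves was not tested. No paired analysis was possible because each mouse has a number of its own, which no mouse of another group shares; the runs of these numbers were fitted as a term instead. Few reads limit Gdf15, Enho and Inhba most, with as few as 3, 16 and 17 reads in a library.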

Other observations

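For each member, the genes whose level across the 56 mice was most like it were looked up among 11875 genes, as a description without a test, since all points share the same libraries and much of the likeness is the difference between groups. Ahsg was closest to Serpina1a (Pearson r = 0.95, and 0.81 with group means taken off) and Plg (0.95 and 0.84), Fetub to Kng1 (0.96 and 0.85), and Hgfac to Serpinc1 (0.94 and 0.85), all of them genes of plasma proteins. Enho was closest to Apom (0.87), and with group means taken off this fell to 0.32. Inhbc was closest to Stk16 (0.82 and 0.78), followed by Txndc5 (0.78) and Hyou1 (0.77), which encode proteins of the endoplasmic reticulum. Between members, Ahsg and Fetub had r = 0.90 (0.69 with group means off), whereas Inhbc and Inhbe, also neighbours, had r = -0.26 (-0.10 with group means off).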
